A study of Mus musculus with 23 samples.

Results

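The EGF family ligands and receptors described here are 10 genes of the 55450 in the table: the ligands Ereg, Areg, Btc, Tgfa, Hbegf and Epgn, the receptors Egfr, Erbb2 and Erbb3, and Lrig1, a transmembrane inhibitor of these receptors. They were chosen as a family by gene symbol, with earlier results of these data known. RNA was sequenced from colon of HFD-fed male Cdx2Apcf/w mice on the C57BL/6 strain that had been colonized with Bacteroides fragilis 638R. BF BSHlow (BF638R bsh-) carried an empty vector, and BF BSHhigh (BF638R bsh+) carried a gene for bile salt hydrolase (BSH), the enzyme that deconjugates bile acids. The mice were 6 to 8 weeks old at the start, received a 60% fat diet and, per the methods of the study, 3 days of antibiotics before colonization. There were 4 libraries of BF BSHlow and 4 of BF BSHhigh normal colon after 2 weeks, 4 and 4 of non-tumor (NT) tissues after 12 weeks, and 4 and 3 of tumor (T) tissues after 12 weeks.

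All groups shared the genotype, the diet and colonization with 1 of the 2 strains, so no group was without bacteria, on another diet or with intact Apc. Cre driven by Cdx2, a gene of intestinal epithelium, deletes 1 floxed allele of the tumor suppressor Apc, so that the non-tumor tissues carry the deletion too. Apc counts therefore checked no label, and the bacterial bsh gene was not measured. The study describes the libraries of 12 weeks as independent samples with pooled sample sizes. The sources used here do not say whether each library is 1 mouse or whether tumor and non-tumor tissues came from the same mice. The p-values measure the spread between these libraries only.

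EGF family ligands are made as membrane-anchored precursors and are released by proteases. The released ligand binds EGFR or ERBB4, which pair with each other or with ERBB2, a receptor with no known ligand, and ERBB3, a neuregulin receptor with a weak kinase, and then signal through RAS-ERK and PI3K. In the gut, this signaling drives proliferation of crypt epithelium and repair after injury, and LRIG1, which marks crypt stem and progenitor cells, restrains it.

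The ligands are recognized by 1 fold, the EGF-like repeat, which is held by 6 cysteines. The coding stretch of this repeat is shown for 5 of the ligands to let a reader see what the measured genes have in common and how far they differ. Each stretch runs 5′ to 3′ on the strand of the gene, from the first to the last of the 6 cysteine codons, which are in capitals.
Ereg: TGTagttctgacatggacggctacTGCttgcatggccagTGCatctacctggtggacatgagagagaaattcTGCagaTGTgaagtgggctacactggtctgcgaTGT
Areg: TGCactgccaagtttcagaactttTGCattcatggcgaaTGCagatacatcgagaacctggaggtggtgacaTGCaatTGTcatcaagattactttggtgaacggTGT
Btc: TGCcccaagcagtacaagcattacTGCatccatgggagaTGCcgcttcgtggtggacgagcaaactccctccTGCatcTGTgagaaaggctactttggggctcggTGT
Tgfa: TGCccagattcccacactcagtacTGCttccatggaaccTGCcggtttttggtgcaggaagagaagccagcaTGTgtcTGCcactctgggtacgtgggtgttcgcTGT
Epgn: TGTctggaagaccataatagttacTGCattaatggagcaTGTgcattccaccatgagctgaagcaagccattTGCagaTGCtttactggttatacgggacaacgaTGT
The stretches were read from GENCODE M21 transcripts (GRCm38) by a search of the coding sequences for 6 cysteine codons with gaps of 7, 4 to 5, 10 to 13, 1 and 8 codons. Only these 5 genes were searched, and Hbegf was left out of the search. In all 5, the gaps were 7, 4, 10, 1 and 8 codons, which made 36 codons or 108 bases each. The bases of the stretches diverged. Over the 10 pairs, the share of identical bases, cysteine codons included, was between 45.4% for Ereg and Tgfa and 62.0% for Btc and Tgfa. Ereg shared 53.7% with Areg, its neighbor in the genome. In the genome each stretch is interrupted by an intron, and its ends lie at chr5:91088496-91089111 (plus strand) for Ereg, chr5:91143614-91144364 (plus) for Areg, chr5:91362421-91366197 (minus) for Btc, chr6:86263200-86269960 (plus) for Tgfa and chr5:91031152-91032237 (plus) for Epgn.

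On chromosome 5 of GRCm38, 4 of the ligand genes were neighbors. Epgn lies at chr5:91027464-91035215, Ereg at chr5:91074622-91093646, Areg at chr5:91139599-91148432 and Btc, on the opposite strand, at chr5:91357261-91402994. The gaps between them were 39.4, 46.0 and 208.8 kb, and 0 protein-coding genes were annotated within them. The other members are Tgfa (chr6:86195223-86275719, plus strand), Lrig1 (chr6:94604529-94700158, minus strand), Erbb3 (chr10:128567523-128589652, minus strand), Egfr (chr11:16752203-16918158, plus strand), Erbb2 (chr11:98412470-98437716, plus strand) and Hbegf on chromosome 18. All 10 are protein-coding and their counts were whole numbers in all 23 libraries. Antisense exons of Gm19610 overlap Ereg, those of Gm43917 overlap Tgfa, those of Mien1 overlap Erbb2 and those of Slc25a26 overlap Lrig1. Both preparations named by the sources mark the strand, but whether the counting used it is not given in the sources used here. Gm19610 had at most 4 counts and Gm43917 had 0 in every library. Mien1 had 38.8 to 85.05 CPM and Slc25a26 5.79 to 11.7 CPM over the 23 libraries, so the values of Erbb2 and Lrig1 could hold a share of their reads.

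The authors deposited expected counts, which summed to between 12401388 and 17903008 per library (median 15874872). The unit of a level is CPM (counts normalized to library size with TMM factors over all 23 libraries), or CPM per kb of exon where genes are compared with each other. The exon length is that of all annotated exons of a gene, merged, which can exceed the length of the transcripts expressed. Orders, shares and ratios of genes on this scale depend on that choice. The column names of the 3 BF BSHhigh tumors repeat those of BF BSHlow tumors. These columns were recognized as a group through a table of the study in which 1997 rows at hand held the same values, and they are called replicates a, b and c. Of 8 epithelial marker genes, 8 were detected in all groups, and their summed level was 9897 to 13095 CPM in non-tumor tissues and 4754 to 8580 CPM in tumors. The summed level of 6 smooth muscle genes was 1518 to 8560 CPM in non-tumor tissues, 115 to 344 CPM in tumors and 7.12 to 208 CPM at 2 weeks. That of 8 squamous epithelial genes was 1.495 to 3.50 CPM in non-tumor tissues, 80.0 to 212 CPM in BF BSHlow tumors and 39.0 to 57.8 CPM in BF BSHhigh tumors. Sprr3 was at 0 in every group but the BF BSHlow tumors, and Krt5 was at 0 in BF BSHhigh tumors and at 2 weeks. Fewer cells of a type and less RNA per cell cannot be told apart in these bulk samples.

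Tumors differed from non-tumor tissues in both ligands and receptors. Of the ligand transcripts, 4 were higher, above all Ereg with a 11.2-fold difference, and Erbb3, Erbb2 and Lrig1 were lower, to 0.266, 0.397 and 0.393 of the level in non-tumor tissues. Of the 9 members that passed the filter on low counts, 4 were higher (Ereg, Btc, Hbegf and Tgfa) and 3 were lower at an adjusted p under 0.05, from the edgeR quasi-likelihood fit of the 15 libraries of 12 weeks. Of all 16454 genes tested, 37.3% were higher, 34.9% lower and 72.2% called in all, so that the number of members called is near the background. With an absolute log2 fold change over 1 as well, 3 were higher and 3 were lower, against 16.4% and 18.4% of all genes, or 34.9% in either direction. The median log2 fold change was 0.42 over the 9 members tested and 0.04 over all genes.

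**Figure D1:**
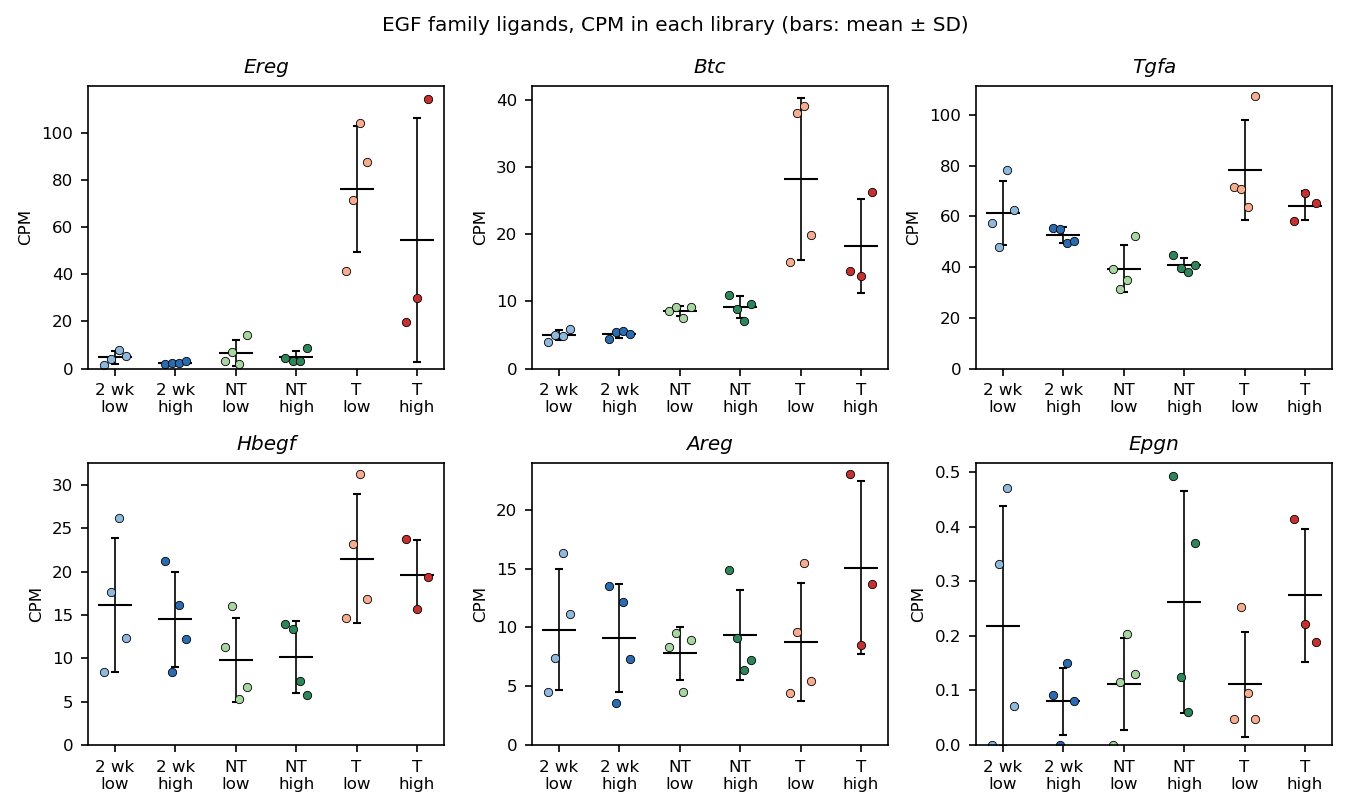
CPM (vertical axes, linear, a scale of its own in each panel) of the 6 ligands in each of the 23 libraries, by group. Each point is a library, with the mean and SD of the group; "2 wk" is normal colon after 2 weeks, NT and T are 12-week non-tumor tissues and tumors, and low and high are BF BSHlow and BF BSHhigh. For Ereg, Btc and Tgfa, all 7 tumors lie above all 8 non-tumor tissues, while Epgn stays under 0.5 CPM throughout.

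Ereg encodes epiregulin, a ligand of EGFR and ERBB4. Its level was 3.36, 7.12, 1.90 and 14.1 CPM in the BF BSHlow non-tumor tissues and 4.56, 3.35, 3.37 and 8.61 CPM in those of BF BSHhigh. In tumors it was 41.5, 71.4, 104 and 87.7 CPM for BF BSHlow and 19.7, 30.0 and 114 CPM for the BF BSHhigh replicates a, b and c. The lowest tumor thus lay above the highest non-tumor tissue, and the 3 BF BSHhigh tumors spanned a 5.80-fold range. Tumor over non-tumor tissues gave a log2 fold change of 3.49 ± 0.47, its standard error (SE), with an adjusted p of 1.05e-05 from edgeR. Counts of Ereg were 380 to 2415 in tumors and 28 to 217 in non-tumor tissues.

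Btc encodes betacellulin, another ligand of EGFR and ERBB4. It had 8.52, 9.14, 7.60 and 9.13 CPM in BF BSHlow and 11.0, 8.87, 7.12 and 9.58 CPM in BF BSHhigh non-tumor tissues. Tumors had 15.9, 38.1, 39.1 and 19.9 CPM for BF BSHlow and 14.6, 13.8 and 26.4 CPM for BF BSHhigh. The ranges did not overlap. The log2 fold change was 1.35 ± 0.21 (SE), with an adjusted p of 3.85e-05 from edgeR.

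Tgfa, which encodes the EGFR ligand TGF-alpha, showed a smaller and more even difference. In non-tumor tissues it was 31.3 to 52.5 CPM for BF BSHlow (39.5 ± 9.22, SD, n = 4) and 38.0 to 44.7 CPM for BF BSHhigh (40.8 ± 2.85, SD, n = 4). In tumors it was 63.9 to 108 CPM for BF BSHlow (78.5 ± 19.8, SD, n = 4) and 58.3 to 69.3 CPM for BF BSHhigh (64.3 ± 5.58, SD, n = 3). The highest value, 108 CPM, was that of replicate 4 of the BF BSHlow tumors, and no tumor overlapped with a non-tumor tissue. Tgfa thus had a log2 fold change of 0.83 ± 0.13 (SE), with an adjusted p of 5.18e-05 from edgeR.

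Hbegf encodes heparin-binding EGF-like growth factor. It had 11.3, 16.03, 5.29 and 6.73 CPM in BF BSHlow and 13.99, 13.3, 7.36 and 5.79 CPM in BF BSHhigh non-tumor tissues, against 14.7, 23.2, 31.3 and 16.9 CPM and 23.7, 15.7 and 19.3 CPM in the tumors of the 2 strains. The groups overlapped, since 2 of the 7 tumors lay below the highest non-tumor tissue. The log2 fold change of 1.04 ± 0.26 (SE) passed the test with adjusted p = 0.00236 from edgeR.

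Areg did not pass the test, and Epgn was too low to be tested. Areg, which encodes amphiregulin, had 8.30, 9.49, 4.48 and 8.94 CPM in BF BSHlow and 14.9, 9.12, 6.38 and 7.20 CPM in BF BSHhigh non-tumor tissues. In tumors it was 4.39, 9.65, 15.4 and 5.47 CPM for BF BSHlow and 23.1, 8.53 and 13.7 CPM for BF BSHhigh. Tumors thus lay both above and below the non-tumor range, and the fitted log2 difference was 0.42 ± 0.30 (SE), with an adjusted p of 0.225 from edgeR. Epgn, which encodes epigen, had 0 to 8 counts per library and was removed by the filter in every comparison. It had a count in 20 of the 23 libraries. In the 3 libraries with 0 counts, a level of up to 0.224, 0.226 and 0.231 CPM (3 counts, counting error only) cannot be told from 0.

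**Figure D2:**
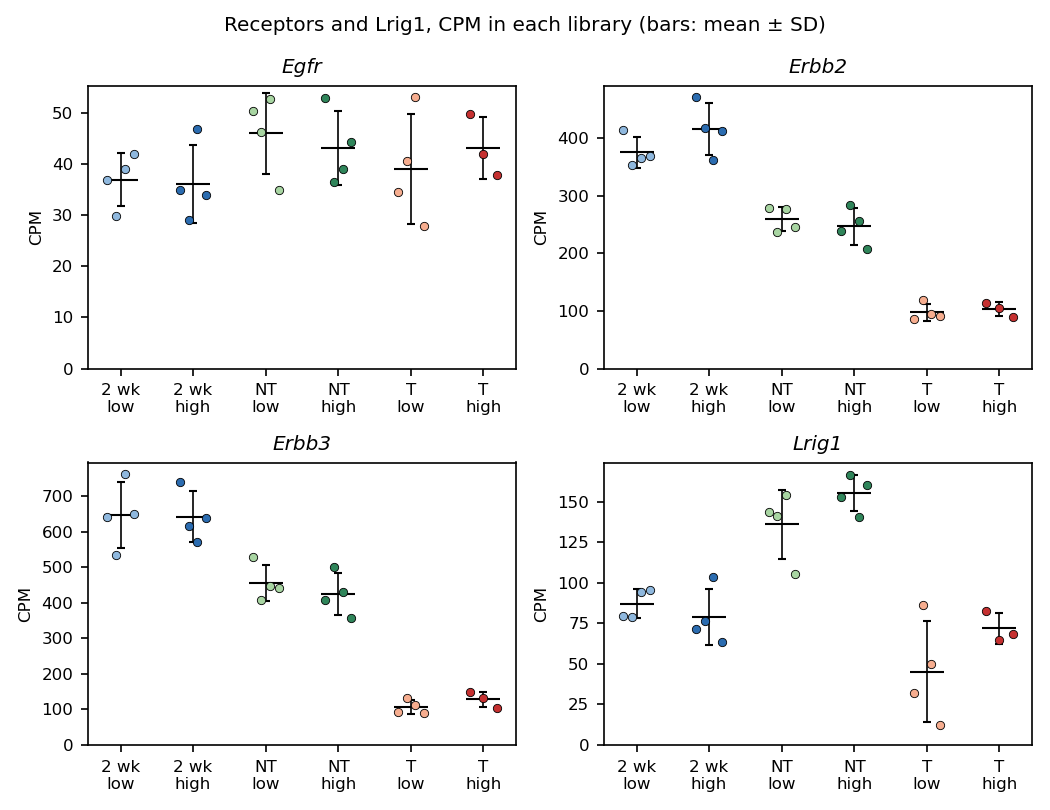
CPM (vertical axes, linear, a scale of its own in each panel) of the receptors Egfr, Erbb2 and Erbb3 and of the inhibitor Lrig1 in each of the 23 libraries, by group, with the mean and SD of the group. Erbb2 and Erbb3 step down from 2 weeks to non-tumor tissues and again to tumors, Egfr stays between 27.9 and 53.0 CPM in non-tumor and tumor tissues, and Lrig1 is spread from 12.5 to 86.1 CPM in BF BSHlow tumors.

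Among the receptors, Erbb3 fell most. It had 528, 408, 448 and 440 CPM in BF BSHlow and 407, 500, 431 and 357 CPM in BF BSHhigh non-tumor tissues. Tumors had 92.2, 131, 113 and 88.8 CPM for BF BSHlow and 148, 132 and 105 CPM for BF BSHhigh. The groups were far apart, with the highest tumor below the lowest non-tumor tissue, and the log2 fold change was -1.91 ± 0.11 (SE), with an adjusted p of 3.73e-09 from edgeR.

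Erbb2 behaved alike, with 208 to 284 CPM in the 8 non-tumor tissues (median 251) and 86.5 to 119 CPM in the 7 tumors (median 94.6). The log2 fold change was -1.33 ± 0.09 (SE), with an adjusted p of 1.20e-08 from edgeR. Beside these values, the 8 epithelial marker genes had a median log2 fold change of -0.68, with 7 lower and 1 higher. The kinds of epithelium differed far more, with 6 of 6 genes of differentiated colonocytes lower (median -6.06), 5 of 5 goblet cell genes lower (-5.21) and 6 of 6 crypt and WNT-driven genes higher (3.22). All 5 squamous genes tested were higher (6.44). Of 4 endothelial genes 4 were higher (0.88), and of 6 fibroblast genes 3 were higher and 1 lower (0.93). Leukocyte genes had 2 of 6 higher and 2 lower (0.27), and mast cell genes 2 of 5 higher and 2 lower (0.54). Smooth muscle genes had 6 of 6 lower (-4.94), and genes of enteric neurons and glia 5 of 5 lower (-3.08). The mitochondrial transcript mt-Co1 took 2.21 to 3.79% of counts in non-tumor tissues and 1.26 to 1.64% in tumors. The part of these differences in the values of the ligands, the receptors and Lrig1 was not tested.

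Egfr, the receptor that the ligands above bind, had 34.8 to 52.8 CPM in non-tumor tissues (median 45.2) and 27.9 to 53.0 CPM in tumors (median 40.5). These ranges overlapped almost wholly, and the log2 fold change was -0.12 ± 0.13 (SE), with an adjusted p of 0.443 from edgeR. Egfros, a transcript that lies within Egfr on the opposite strand, had 14 to 44 counts in tumors and 0 to 2 in the other tissues, against 577 to 1122 counts of Egfr in tumors.

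Lrig1 had 144, 141, 154 and 105 CPM in BF BSHlow and 153, 166, 141 and 160 CPM in BF BSHhigh non-tumor tissues. In tumors it had 32.2, 86.1, 49.98 and 12.5 CPM for BF BSHlow and 82.8, 64.6 and 68.6 CPM for BF BSHhigh. All tumors were below all non-tumor tissues, and the BF BSHlow tumors varied 6.90-fold, with the lowest value in replicate 4. The log2 fold change was -1.35 ± 0.28 (SE), with an adjusted p of 5.49e-04 from edgeR. In the same replicate, the summed epithelial, differentiated colonocyte and goblet cell markers were also the lowest of the 7 tumors, at 4754, 53.8 and 48.8 CPM, and the crypt and WNT-driven sum was the highest, at 1719 CPM. The smooth muscle and fibroblast sums were the lowest there too, at 115 and 1476 CPM. Those of the squamous, leukocyte, mast cell, enteric neuron and glia and endothelial lists were not. The part of these sums in the value of Lrig1 was not tested. Over all members, 6 of 10 had ranges that did not overlap between tumor and non-tumor tissues, 3 higher and 3 lower, against 21.7% and 21.1% of all genes tested, or 42.8% in all.

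The comparisons that follow use the same libraries again and are not independent of the one above. Within each strain, the same 7 members passed the test, against 65.5% of all genes for BF BSHlow and 56.6% for BF BSHhigh. The log2 fold change of Ereg was 3.51 ± 0.65 (SE) for BF BSHlow and 3.47 ± 0.68 (SE) for BF BSHhigh, that of Erbb3 was -2.09 and -1.73, and that of Btc was 1.72 and 0.99. The difference between these 2 effects, tested as an interaction term, passed for 0 of 9 members by edgeR, DESeq2 and limma-voom, against 0.991% of all genes by edgeR. Unadjusted, the count was also 0 at 0.05, and Btc came nearest with an adjusted p of 0.651. For BF BSHhigh, the calls of Hbegf and Lrig1 were near the threshold, with adjusted p of 0.0464 and 0.0311 from edgeR. They were lost in 12 and 5 of 21 alternatives, among them the omission of any 1 of the 3 BF BSHhigh tumors. Without replicate c, 4 of the 7 members passed. The log2 fold changes of Hbegf and Lrig1 were then 0.95 and -1.08, against 0.94 and -1.11 with it, and their adjusted p from edgeR was 0.0949 and 0.0897. That of Btc was 0.63 without replicate c (adjusted p = 0.108 from edgeR), and that of Ereg was 2.33 (adjusted p = 0.00537). The call of Btc was kept without a or b, but it was also lost with limma-voom (0.95, adjusted p = 0.0513). For BF BSHlow, the call of Hbegf was lost without replicate 3 of the tumors (0.89, adjusted p = 0.0539 from edgeR).

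**Figure D3:**
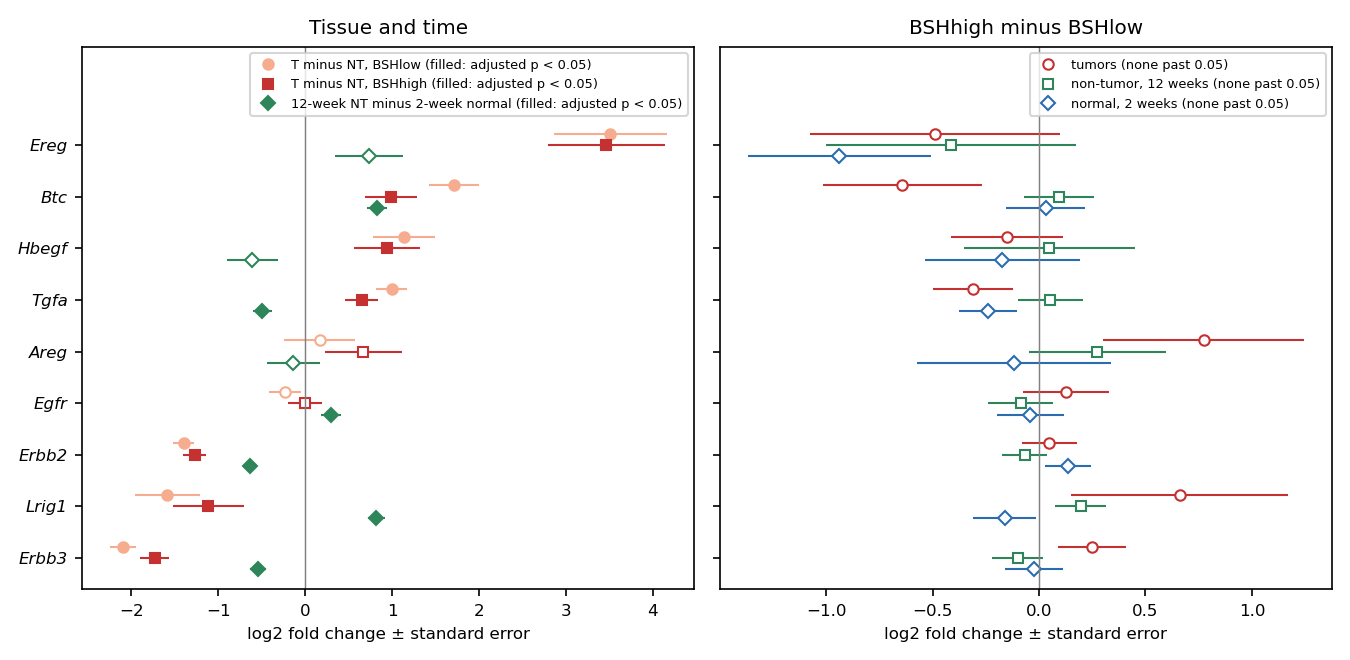
Log2 fold changes (horizontal axes) with standard errors for the 9 members that passed the filter. The left panel gives tumor minus non-tumor tissues within each strain and 12-week non-tumor tissues minus 2-week normal colon, and the right panel, on a narrower axis, gives BF BSHhigh minus BF BSHlow in the 3 tissues. Filled symbols have an adjusted p under 0.05 from edgeR, and the right panel holds 0 of them.

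Scaled to exon length, Erbb3 and Erbb2 were among the first 3 members in both tissues, and Ereg stood higher in the order of tumors. In BF BSHlow non-tumor tissues the levels were led by Erbb3 (75.8 ± 8.45 CPM per kb, SD, n = 4), Erbb2 (49.8 ± 4.10) and Lrig1 (24.4 ± 3.81). Areg, Tgfa and Egfr followed with 6.42 ± 1.87, 6.08 ± 1.42 and 4.06 ± 0.697 CPM per kb, and Ereg was ninth of the 10 with 1.60 ± 1.31, before Epgn with 0.0621 ± 0.0466. In BF BSHlow tumors, Erbb2 (18.8 ± 2.83 CPM per kb, SD, n = 4), Ereg (18.5 ± 6.49) and Erbb3 (17.7 ± 3.30) led the order and differed by less than their SDs. Tgfa followed with 12.1 ± 3.04 and Lrig1 with 8.09 ± 5.60. In BF BSHhigh tumors, Erbb3 (21.3 ± 3.64 CPM per kb, SD, n = 3) and Erbb2 (19.7 ± 2.34) had the highest means. The mean of Ereg, 13.2 ± 12.6 CPM per kb, rested on replicate c, with 4.77, 7.26 and 27.7 CPM per kb in a, b and c, and Lrig1, Areg and Tgfa had 12.9 ± 1.71, 12.4 ± 6.06 and 9.91 ± 0.859.

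The sum of the 6 ligands was 12.4 to 25.8 CPM per kb in the 8 non-tumor tissues (median 18.5) and 31.2 to 62.99 CPM per kb in the 7 tumors (median 49.5). Its makeup shifted to Ereg. Ereg held 3.70 to 15.2% of the sum in non-tumor tissues (median 4.99%), 1.99 to 5.68% at 2 weeks (median 3.91%) and 11.6 to 46.9% in tumors (median 34.9%). Areg held a median of 36.5% in non-tumor tissues and 19.1% in tumors. Ereg was the ligand with the largest share in 4 of the 7 tumors, 3 of BF BSHlow and 1 of BF BSHhigh, and in 0 of the 16 other libraries, where it was Areg or Tgfa. In replicate a of the BF BSHhigh tumors, Areg held 46.2% and Ereg 11.6%.

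**Figure D4:**
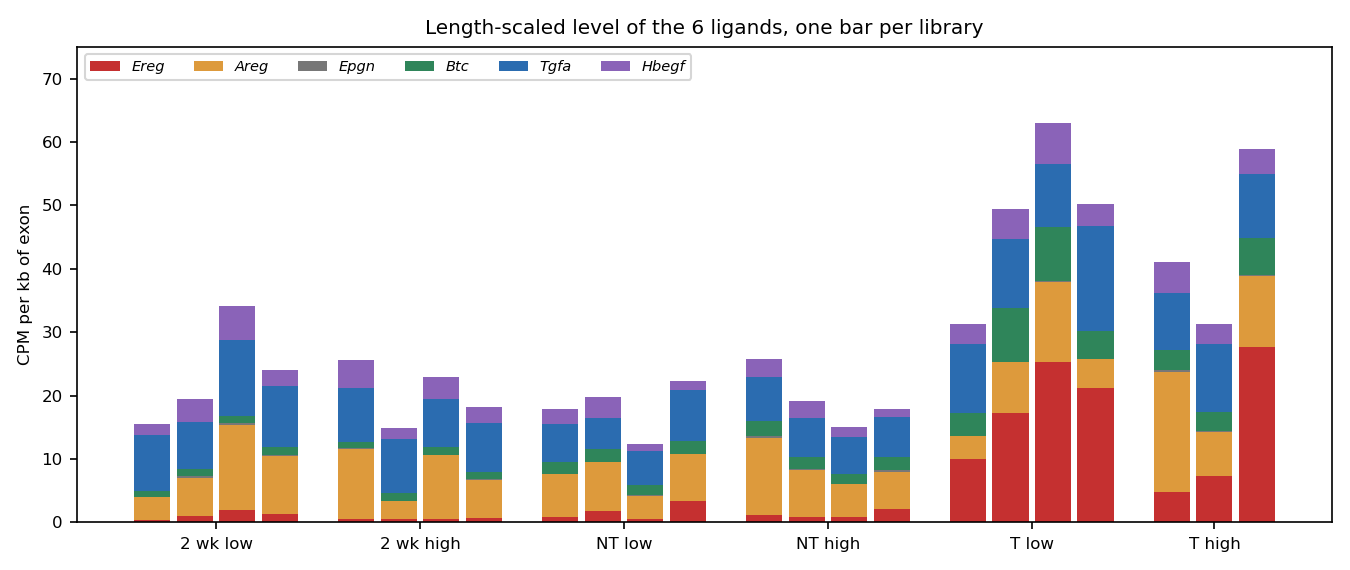
Level of the 6 ligands in CPM per kb of exon (vertical axis), stacked, with 1 bar per library and libraries ordered by group and replicate (a, b and c for BF BSHhigh tumors). Tumor bars reach 31.2 to 62.99 CPM per kb and hold more Ereg than those of the other tissues.

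The receptors shifted in relation to each other as well. The ratio of Erbb3 to Egfr on the length scale was 22.98 to 40.0 at 2 weeks, 14.5 to 25.8 in non-tumor tissues and 4.004 to 6.11 in tumors, with medians of 34.7, 18.2 and 5.61. That of Erbb2 to Egfr had medians of 25.2, 11.7 and 5.46, and that of Erbb3 to Erbb2 had medians of 1.35, 1.49 and 1.02. These ratios restate the levels above without the scaling between libraries.

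Between BF BSHhigh and BF BSHlow mice, no difference of a member exceeded the spread between libraries in the test, in any of the 3 tissues. In tumors, 0 of 9 members passed the test by edgeR, DESeq2 and limma-voom, 0 reached 0.05 unadjusted by edgeR, and Btc came nearest with an adjusted p of 0.540. By edgeR, 0.509% of all 15325 genes passed. The fitted log2 differences of BF BSHhigh minus BF BSHlow tumors were 0.77 for Areg (SE 0.47), 0.66 for Lrig1 (0.51), -0.64 for Btc (0.37) and -0.49 for Ereg (0.59). Those of Tgfa, Erbb3, Hbegf, Egfr and Erbb2 were -0.31 (0.19), 0.25 (0.16), -0.15 (0.26), 0.13 (0.20) and 0.05 (0.13). Within 2 SE, the first 4 left room for differences of over 1 on the log2 scale. Of the 10 members, 0 had ranges that did not overlap, against 11.8% of genes. Ereg had 19.7 and 30.0 CPM in replicates a and b, below the 4 BF BSHlow tumors, and 114 CPM in replicate c, above them. Without replicate c its log2 difference was -1.64 (adjusted p = 0.0960 from edgeR), and without replicate a it was -0.089. Single libraries moved other members too. The difference of Areg was 0.34 without BF BSHhigh replicate a and 1.19 without BF BSHlow replicate 3, that of Lrig1 was 0.35 without BF BSHlow replicate 4 and 1.18 without replicate 2, and that of Btc was -1.02 without BF BSHhigh replicate c.

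Of the marker lists, goblet cell genes had 2 of 5 higher in BF BSHhigh tumors past the test, differentiated colonocyte genes 2 of 6 higher, and squamous genes 0 of the 5 tested. The summed level of 5 goblet cell genes was 48.8 to 108 CPM in BF BSHlow tumors and 4215, 1222 and 489 CPM in the BF BSHhigh tumors a, b and c. That is the order opposite to that of Ereg in these 3 tumors. The sums of differentiated colonocyte, smooth muscle, fibroblast and leukocyte genes also fell from a to b to c, while those of the other lists did not. An order of 3 tumors is too short to tie any of these sums to Ereg. The sum of 8 squamous genes, given above, did not overlap between the strains. Their part in the levels of the members was not tested.

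In non-tumor tissues, 0 of 9 members passed the test by edgeR, DESeq2 and limma-voom, 0 reached 0.05 unadjusted, and Lrig1 came nearest with an adjusted p of 0.671. Of all 14933 genes tested, 0% passed, and 1377 reached 0.05 unadjusted. Of the 10 members, 0 had ranges that did not overlap, against 5.59% of genes. The largest fitted difference was that of Ereg, -0.41 on the log2 scale (standard error 0.59), and the others were between -0.10 and 0.27. At 2 weeks, 0 of 9 members passed by the 3 tools and 0 reached 0.05 unadjusted, against 0.00727% of all 13752 genes called by edgeR, and 0 of 10 did not overlap, against 3.54%. Ereg had 1.46, 4.14, 8.01 and 5.51 CPM in BF BSHlow and 2.10, 2.26, 2.55 and 3.12 CPM in BF BSHhigh colon. The BF BSHhigh values lay within the range of the BF BSHlow values, with a log2 difference of -0.94 ± 0.43 (SE), with an adjusted p of 0.736 and an unadjusted p of 0.0539 from edgeR.

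Normal colon after 2 weeks and non-tumor tissues after 12 weeks differed in 6 of the 9 members tested, 3 higher and 3 lower at 12 weeks, against 33.0% and 30.2% of all 15532 genes, or 63.2% in all. None of these differences exceeded 1 on the log2 scale, where 26.5% of all genes did. Lrig1 was 63.4 to 103 CPM at 2 weeks and 105 to 166 CPM at 12 weeks, and Btc was 4.01 to 5.87 and 7.12 to 11.0 CPM. Neither overlapped between the times, and both had a log2 fold change of 0.82 (SE 0.10 and 0.12, adjusted p = 4.17e-06 and 1.81e-05 from edgeR). Erbb2 had 354 to 471 CPM at 2 weeks and a log2 fold change of -0.63 ± 0.08 (SE), with an adjusted p of 3.54e-06, and Erbb3 had 535 to 761 CPM and a log2 fold change of -0.54 ± 0.09 (SE), with an adjusted p of 1.15e-04.

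Tgfa was also lower at 12 weeks, with 48.2 to 78.2 CPM at 2 weeks and a log2 fold change of -0.49 ± 0.11 (SE), with an adjusted p of 9.55e-04 from edgeR, and 7 of 8 non-tumor tissues lay below all 2-week libraries. Its level in tumors, 58.3 to 108 CPM, overlapped with that at 2 weeks. So did that of Lrig1, with 12.5 to 86.1 CPM in tumors and 63.4 to 103 CPM at 2 weeks. Hbegf, with 14.7 to 31.3 CPM in tumors and 8.40 to 26.2 CPM at 2 weeks, overlapped as well. The tumor levels of Ereg, Btc, Erbb2 and Erbb3 did not overlap with those at 2 weeks. Egfr was higher at 12 weeks than at 2 weeks by 0.30 ± 0.12 (SE, log2), with an adjusted p of 0.0365 from edgeR, a call lost in 12 of 22 alternatives. Ereg, Hbegf and Areg had log2 fold changes of 0.73, -0.61 and -0.14 (adjusted p = 0.116, 0.0831 and 0.712). In all, 4 of 10 members did not overlap between the times, against 25.5% of all genes tested. Age, length of diet and of colonization and any processing of these sets changed together with the time and cannot be told apart. Markers of cell types differed as well. Of 8 epithelial genes, 5 were lower and 1 was higher at 12 weeks (median log2 fold change -0.46). Their summed level was 13508 to 18520 CPM at 2 weeks, against the 9897 to 13095 CPM of non-tumor tissues given above. Of the genes of smooth muscle, fibroblasts and endothelium, 6 of 6, 6 of 6 and 4 of 4 were higher at 12 weeks (median log2 fold changes 5.42, 3.39 and 1.96), and of the leukocyte genes 5 of 6 were higher and 1 was lower (1.78). The summed differentiated colonocyte genes were 13694 to 25522 CPM at 2 weeks and 1820 to 4565 CPM at 12 weeks, with 3 of 6 lower past the test. These were Car1, Guca2a and Krt20, with log2 fold changes of -5.63, -3.55 and -1.49. Those of Aqp8, Slc26a3 and Car4 were near 0, at -0.12, -0.17 and 0.22, so the fall of the sum was not shared by all genes of the list. The share of mt-Co1 was 4.001 to 9.38% at 2 weeks, against the 2.21 to 3.79% given above. Their part in these differences was not tested.

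Around the members, 48 other genes of the pathway were followed in 5 lists, of which 45 passed the filter and 34 passed the test between tumor and non-tumor tissues, against the 72.2% of all genes given above. Among the other ERBB ligands and receptor, 3 of 6 genes were tested, with 1 higher, 1 lower and a median log2 fold change of 0.79. Nrg1, a neuregulin ligand of ERBB3 and ERBB4, rose from 1.30 to 4.85 CPM in non-tumor tissues (median 3.36) to 16.2 to 57.6 CPM in tumors (median 43.6), a log2 fold change of 3.56 ± 0.27 (SE), with an adjusted p of 3.64e-08 from edgeR. Egf, the founding member of the family, fell from 3.68 to 7.82 CPM (median 5.39) to 0.152 to 0.871 CPM (median 0.472), a log2 fold change of -3.45 ± 0.31 (SE), with an adjusted p of 2.01e-07. Erbb4, Nrg2 and Nrg3 had at most 0.253, 1.04 and 0.453 CPM in any library and were not tested.

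Of 5 genes for ligand release, 4 were higher and 1 was lower, with a median log2 fold change of 0.69. Rhbdf2, which encodes a cofactor of the sheddase ADAM17, had a log2 fold change of 1.04 ± 0.07 (SE), with an adjusted p of 1.93e-08 from edgeR, and that of Adam17 itself was 0.44. The lower gene was Rhbdl2, a rhomboid protease, with 47.8 to 71.2 CPM in non-tumor tissues and 4.74 to 17.7 CPM in tumors (log2 fold change -2.70, SE 0.16, adjusted p = 3.82e-09). Of 10 inhibitors and genes of receptor turnover, 4 were higher and 4 lower (median 0.05). Lrig3, a paralog of Lrig1, fell from 51.2 to 65.3 CPM to 4.82 to 10.4 CPM (log2 fold change -2.99, SE 0.13, adjusted p = 5.60e-10), while Spry4, a feedback inhibitor of receptor tyrosine kinase signaling, had a log2 fold change of 1.84 ± 0.23 (SE), with an adjusted p of 4.62e-06.

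Of 17 genes of the RAS-ERK and PI3K relay, 4 were higher and 6 lower, with a median of 0.05 that is close to the 0.04 of all genes. Of these, 2 exceeded 1 on the log2 scale. Plcg1, which encodes phospholipase C gamma, was higher by 1.53 ± 0.10 (SE), with an adjusted p of 7.26e-09 from edgeR, and Map2k1, which encodes the kinase MEK1, fell by 1.11 ± 0.08 (SE), with an adjusted p of 1.81e-08. The list of 10 transcripts that ERK signaling is known to induce had the largest median of the 5 lists, 2.26, with 8 higher and 1 lower. Etv5, an ETS transcription factor, rose from 8.01 to 18.9 CPM in non-tumor tissues to 138 to 365 CPM in tumors (log2 fold change 4.21, SE 0.22, adjusted p = 1.76e-09). Dusp4, a phosphatase of ERK, rose from 3.32 to 9.82 CPM to 40.1 to 97.2 CPM, a log2 fold change of 3.71 ± 0.25 (SE), with an adjusted p of 1.05e-08. The log2 fold changes of Fosl1 and Phlda1 were 3.78 ± 0.50 (SE) and 3.54 ± 0.17 (SE). The lower gene was Fos, named after its values were seen, with a log2 fold change of -1.26 ± 0.44 (SE), with an adjusted p of 0.0178, and Dusp5 had 0.08 (adjusted p = 0.788). Several of these transcripts also have other inducers, and no measurement of ERK activity was used here.

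**Figure D5:**
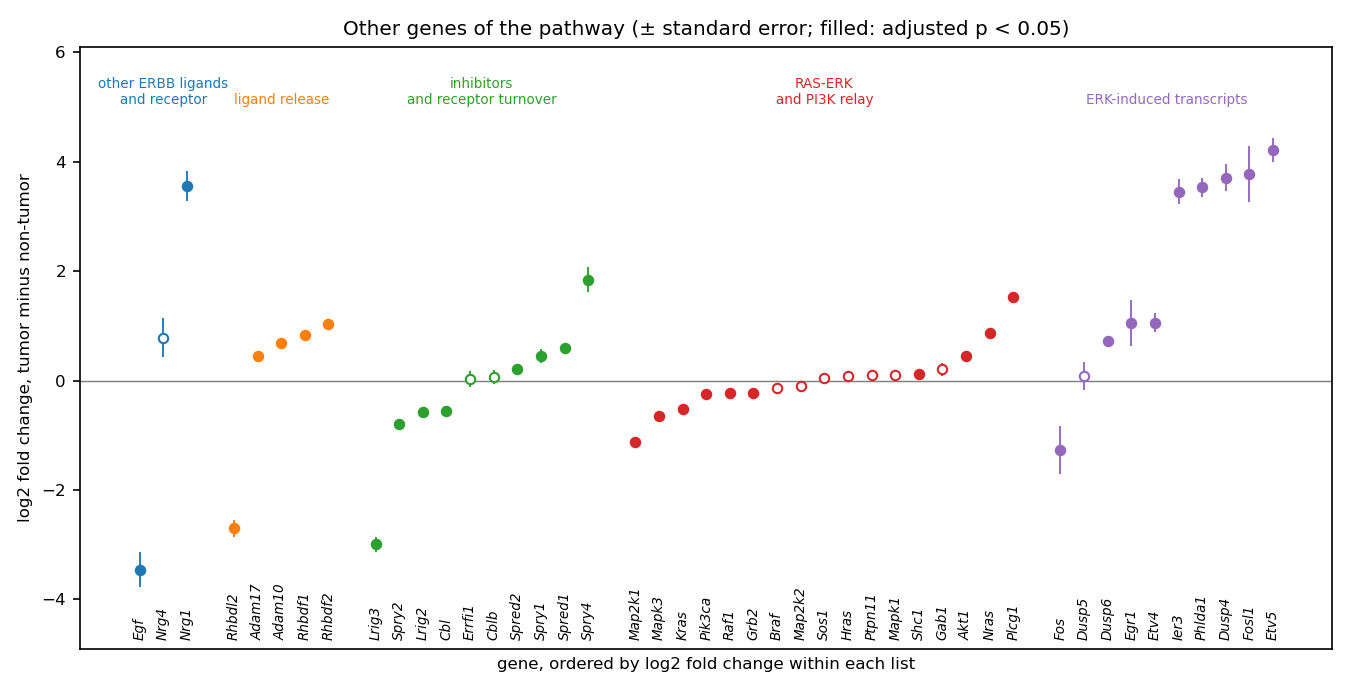
Log2 fold change of tumor minus non-tumor tissues (vertical axis) with its standard error for the 45 pathway genes that passed the filter, in their 5 lists and ordered by log2 fold change within each list. Filled points have an adjusted p under 0.05 from edgeR. The relay genes lie near 0, the ERK-induced transcripts reach 4.21, and Egf, Lrig3 and Rhbdl2 lie below -2.

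Between the strains, 0 of the 45 pathway genes passed the test of edgeR in tumors and 4 reached 0.05 unadjusted. In non-tumor tissues the numbers were 0 of 43 and 5, at 2 weeks 0 of 45 and 2, and for the interaction term 0 of 45 and 6. Over all genes, 12.7%, 9.22%, 6.80% and 9.60% reached 0.05 unadjusted in these comparisons. DESeq2 called 2 of these genes in tumors (Nrg1, lower in BF BSHhigh, and Rhbdl2, higher), 2 in non-tumor tissues (Dusp6 and Adam10, both higher), 0 at 2 weeks and 2 for the interaction term (Rhbdl2 and Adam10), against 4.84%, 1.13%, 0.385% and 2.55% of all genes, and limma-voom called 0 in all 4. The genes called by DESeq2 alone were named after their values were seen. The smallest unadjusted p-value among them in tumors was that of Nrg1, with a log2 difference of -0.94 and an adjusted p of 0.140 from edgeR.

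The genes whose profile over the 23 libraries was most like that of each member were ranked by the root mean square (RMS) difference of log2 CPM after centering each gene, among 14395 genes. This is a description over libraries that share tissue and depth. For Ereg they were Il6, Phlda1 and Trpa1, with RMS differences of 0.69, 0.71 and 0.72, against a spread of Ereg about its own mean of 1.95. For Erbb2 they were Mkrn1, Erbin and Ngef (0.11, 0.13 and 0.14, against 0.83), and for Erbb3 they were Chmp4c, Mapre2 and Zzef1 (0.16, 0.16 and 0.18, against 1.06). Those of Lrig1 were Golm1, Dapk2 and Ffar4 (0.33, 0.35 and 0.37, against 0.83).

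Areg was followed most closely by Plk3, Litaf and Atf3 (0.43, 0.49 and 0.53, against 0.67), and Hbegf by Ypel2, Hist1h4i and Atf3 (0.40, 0.44 and 0.46, against 0.68). Atf3, a stress-induced transcription factor, is thus among the nearest of both. For Btc, Tgfa and Egfr the nearest genes were Tpm4, Stk3 and Tmem254b, with RMS differences of 0.27, 0.19 and 0.19 against spreads of 0.93, 0.41 and 0.27.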

How the data were processed

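Expected counts per gene in 23 libraries, not normalized, were deposited by the authors, who name Cutadapt for trimming, STAR for alignment (mm10) and RSEM for counting. Tool versions are not given in the sources used here. Per the labels, mice were colonized 2 times a week and libraries were made from total RNA, where the methods state a gavage at intervals of 3 days and an mRNA preparation. The gene identifiers are those of GENCODE M21. Of the deposited values, 4.24% were not whole, and 1 gene with a text cell was left out. The expected counts were rounded, and edgeR 4.0.16 under R 4.3.3 gave quasi-likelihood tests (TMM, filterByExpr, Benjamini-Hochberg over all genes). The comparisons of BF BSHhigh with BF BSHlow used only the libraries of the groups compared, those of tissues and the interaction term used the 15 libraries of 12 weeks, and that of times used 16. A gene was called past an adjusted p-value of 0.05. The standard error is the log2 fold change divided by the square root of F. Likeness used log2 CPM with a prior count of 2 and genes with a mean of at least 1 CPM. The genes named outside the members are, per list, up to 4 with an absolute log2 fold change over 1, unless stated. The alternatives were DESeq2 1.42.0, limma-voom (limma 3.58.1), RLE scaling, 2 other filters, 1 fit of all 23 libraries, the omission of each library in turn and a block for the replicate number. The tests of edgeR, DESeq2 and limma-voom had first been tried on simulated counts with the same spread for all genes. This was done for tumor against non-tumor tissues, for the strains in each tissue and for the times. The comparisons within each strain, the interaction term and the other alternatives were not tried in this way. Python 3.11.15, numpy 2.4.6 and pandas 2.3.3 served for the other steps. Members and lists were chosen with earlier results of these data known.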

Additional observations from a re-analysis of the deposited data

How the results depend on the processing

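Of 1350 log2 fold changes of members under the alternatives, 1268 kept their direction and their side of the threshold, 32 lost a call, 5 gained one and 45 changed sign, of which 0 had been called. The 7 calls between tumor and non-tumor tissues held under all alternatives run. For BF BSHhigh alone, 4 to 7 members were called when each library was left out, with 4 without replicate c of the tumors. Sign changes were seen for values near 0 or with wide spread. With each library left out, the log2 fold change of tumor against non-tumor tissues was between -0.27 and 0.38 for Areg in BF BSHlow and between -0.12 and 0.11 for Egfr in BF BSHhigh, and that of the interaction term was between -1.19 and 0.35 for Ereg and between -0.53 and 0.059 for Hbegf. That of BF BSHhigh against BF BSHlow was, in tumors, between -0.31 and 0.077 for Hbegf, -0.0012 and 0.30 for Egfr and -0.021 and 0.16 for Erbb2. In non-tumor tissues it was between -0.044 and 0.22 for Tgfa, -0.16 and 0.39 for Hbegf, -0.81 and 0.26 for Ereg, -0.038 and 0.42 for Areg, -0.0079 and 0.20 for Btc and -0.14 and 0.0051 for Erbb2. At 2 weeks it was between -0.071 and 0.12 for Btc, -0.37 and 0.24 for Areg, -0.42 and 0.16 for Hbegf, -0.11 and 0.071 for Erbb3 and -0.19 and 0.060 for Egfr. Between the times, that of Areg was between -0.31 and 0.043, and 0.0099 with limma-voom. For Egfr in BF BSHhigh it was 0.00029 with limma-voom, 0.0010 without a filter and 0.00051 in the fit of all 23 libraries. Over all genes, edgeR, DESeq2 and limma-voom called 78, 741 and 43 genes between the strains in tumors, 0, 169 and 0 in non-tumor tissues, 1, 53 and 1 at 2 weeks and 163, 420 and 0 for the interaction term. The cause was not tested.

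The sources do not say that a replicate number marks a shared mouse. Between BF BSHlow tumor and non-tumor tissues, the correlations of same-numbered libraries 1 to 4 were 0.18, -0.11, 0.01 and 0.12. For tumors 1 and 4, the same-numbered non-tumor library had the highest correlation. So few pairs with such small values cannot decide whether the numbers mark shared mice. The same check between the strains, with values between -0.17 and 0.32, cannot show shared mice, since each mouse received 1 strain. Samples paired in another way cannot be told from this. With the replicate block, 7 members were called between tumor and non-tumor tissues of BF BSHlow, and 0 between the strains in non-tumor tissues and at 2 weeks, as without it. The other comparisons had no block, since the BF BSHhigh tumors carry no numbers of their own or the fit holds several tissues. With 3 BF BSHhigh tumors, a difference that missed the threshold between strains is not shown to be absent.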
